A study of Mus musculus with 6 samples.

Results

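The genes examined here encode the machinery that starts transcription: the subunits of the RNA polymerases, the general transcription factors with TBP and its associated factors (TAFs), and the Mediator complex. They were taken from the gene descriptions of the arrays by the phrases "polymerase (RNA)", "TATA box binding protein", "RNA polymerase II, TATA box", "general transcription factor", "mediator complex subunit" and "mediator of RNA polymerase II". The phrases found 147 of 44170 array rows, each the summary of the probes of one target. Where several rows described one gene, the one with the greatest average across the 6 arrays stood for it. This left 94 genes among 36140 features. Of the 94, 26 belonged to Mediator, 19 were TBP, TBP-like proteins and TAFs, and 13 belonged to TFIIA, TFIIB, TFIIE, TFIIF or TFIIH. A further 6 encoded subunits of RNA polymerase II alone, 5 encoded subunits shared between polymerases, 8 belonged to RNA polymerase III and 5 to TFIIIA or TFIIIC. Polr1e of RNA polymerase I and the mitochondrial polymerase Polrmt were the only genes of their classes. The last 10 were the TFII-I family, Btf3l4 and 6 transcripts that the files know only by a description. Class medians given under the name of the TFII-I family cover all 10.

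Liver RNA came from wild-type male C57 BL/6 mice aged 9 to 10 weeks, and each mouse gave 1 array. In the LPS/GalN group, 3 mice were given 20 mg of GalN (galactosamine, a sugar that depletes uridine nucleotides in hepatocytes) together with 0.01 µg of LPS, a bacterial endotoxin. In the LPS group, 3 mice were given 0.01 µg of LPS alone. Both groups were examined 2.5 h after treatment. All 6 mice had thus received LPS, and groups without LPS or with GalN alone were not analysed here. The labels describe the replicates as separate treatments.

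At a promoter of RNA polymerase II, TFIID (TBP with its TAFs) recognises the core promoter, TFIIA and TFIIB join it, and TFIIF brings in the polymerase. TFIIE and TFIIH then open the DNA, and Mediator carries signals from DNA-bound activators to this assembly. Mediator is described as a head and a middle module that contact the polymerase, a tail that contacts activators, the scaffold subunit Med14 and a separable kinase module. RNA polymerase III, which makes tRNA and 5S rRNA, is brought to its genes by TFIIIA, TFIIIC and TFIIIB.

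Hepatocyte genes were bright on every array: the mean log2 intensity of 10 hepatocyte markers lay between 15.17 and 15.25 on the LPS/GalN arrays and between 15.20 and 15.39 on the LPS arrays. Some arrays also carried transcripts of other tissues. The mean of 10 T cell and thymus markers was 10.17 and 9.51 on LPS/GalN replicates 2 and 3, and 5.60 to 6.20 on LPS/GalN replicate 1 and the LPS arrays. The mean of 10 intestinal markers was 6.53 to 6.73 on the LPS/GalN arrays, against 10.35 and 10.54 on LPS replicates 1 and 2 and 6.80 on LPS replicate 3. The mean of 8 proliferation markers was 8.63 and 8.30 on LPS/GalN replicates 2 and 3, and 6.23 to 6.80 on LPS/GalN replicate 1 and the LPS arrays. LPS/GalN replicate 1 and LPS replicate 3 were therefore low for thymus and intestine markers, and the difference between these 2 arrays is given below for each of the genes that passed the test. Among 9 markers of sinusoidal endothelium 3 rose, with a median log2 difference of 1.11, and among 10 neutrophil markers 2 fell, with a median of -0.60. Of 10 Kupffer cell markers none passed the threshold in limma, with a median of 0.82. The part of these cells in the results was not tested. In tissue RNA, fewer cells of a type and less RNA per cell cannot be told apart.

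Of the 94 genes, 4 fell and 1 rose in LPS/GalN relative to LPS at an adjusted p under 0.05 in limma. The genes that fell were the Mediator subunits Med28, Med26 and Med21 and the TFIID subunit Taf7. The gene that rose was Polr2l, through a row that disagreed with another row of its gene. The 4 that fell were 4.26% of the genes, against 3.06% of all 36140 features that fell. The 1 that rose was 1.06%, against 0.625% of all features. Both shares were near the background, so the counts are no result about these genes as a group. The median log2 difference was 0.09 over the 94 genes and 0.05 over all features, and 69 of the 94 genes differed by less than 0.5. The 3 LPS/GalN arrays all lay above the 3 LPS arrays for 17 genes (18.1%, against 13% of all features) and all below them for 13 genes (13.8%, against 11.1%). At an unadjusted p under 0.05, 12 genes were higher and 10 lower, where 8.53% and 9.1% of all features were. All 94 genes lay above the level of the random probes on at least 1 array of each group, and 80 did so on all 6 arrays.

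**Figure D1:**
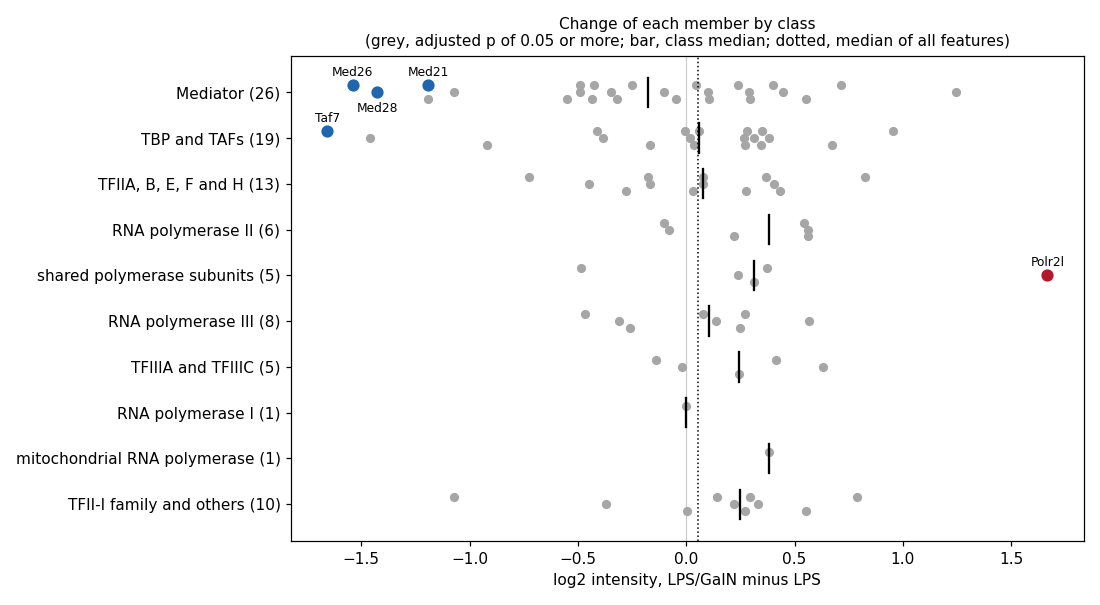
Log2 intensity in LPS/GalN minus LPS (x axis) for each of the 94 genes, by class (y axis, number of genes in brackets). Grey points did not pass the threshold, black bars are class medians, and the dotted line is the median of all features at 0.05. The 3 Mediator genes and Taf7 that fell lie between -1.66 and -1.19, and Polr2l lies alone at 1.67.

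Mediator held 3 of the 4 genes that fell, which is 11.5% of its 26 genes, against 3.06% of all features. The upstream sequences of these 3 genes are shown because the genes moved in the same direction. The 250 bases before a start hold the upstream part, not the whole, of the core promoter that Mediator and TFIID act upon. The windows are RefSeq sequences of build GRCm38.p6, in the direction of transcription. Capitals mark every match to any of 6 motifs on either strand. The motifs were the TATA box as TATAAA, the GC box as GGGCGG, the CCAAT box in its 5 letters, the ETS core as CCGGAA, the E-box as CACGTG and the CRE core as TGACGT. Med28 is given from chr5:45519979-45520228 (plus strand), Med26 from chr8:72548311-72548560 (minus strand) and Med21 from chr6:146642329-146642578 (plus strand).
Med28: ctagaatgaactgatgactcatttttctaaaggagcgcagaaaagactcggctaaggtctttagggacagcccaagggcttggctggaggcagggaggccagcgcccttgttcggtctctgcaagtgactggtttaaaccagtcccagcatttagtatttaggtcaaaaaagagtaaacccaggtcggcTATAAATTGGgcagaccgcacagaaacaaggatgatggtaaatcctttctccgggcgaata
Med26: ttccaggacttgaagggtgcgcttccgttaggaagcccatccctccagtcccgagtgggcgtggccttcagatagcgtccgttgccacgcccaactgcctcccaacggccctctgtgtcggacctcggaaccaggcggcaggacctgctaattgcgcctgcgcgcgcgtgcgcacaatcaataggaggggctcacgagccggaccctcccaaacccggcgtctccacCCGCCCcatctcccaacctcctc
Med21: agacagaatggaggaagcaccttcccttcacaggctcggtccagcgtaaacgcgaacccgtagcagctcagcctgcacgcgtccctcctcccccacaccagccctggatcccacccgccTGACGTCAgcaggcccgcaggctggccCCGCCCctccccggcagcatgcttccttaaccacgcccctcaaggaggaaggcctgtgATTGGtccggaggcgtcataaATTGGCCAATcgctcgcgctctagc

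The 3 windows had no motif in common. Med28 held 1 match to the TATA box, 61 bases before the start, overlapping 1 CCAAT box on the other strand. Its window had a GC content of 48.4%. Med26 held 1 GC box and had a GC content of 65.6%. Med21 held 1 GC box, 3 CCAAT boxes and the CRE core on both strands, which overlap in the palindrome, and had a GC content of 64.8%. RefSeq gave 90 promoters for 78 of the 94 genes. Among these, 13.3% held TATAAA, against 12.4% of 32851 promoters in the table, and 33.3% held CCAAT, against 33.8%. The GC box was in 55.6%, against 32.7%, and the ETS core in 35.6%, against 12%. The E-box was in 14.4%, against 6.02%, and the CRE core in 13.3%, against 6.47%. The median GC content was 57.4% in these promoters and 52.4% in the whole table. These are matches of letters and not evidence of binding.

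Med28 is a subunit of the Mediator head. Its log2 intensity was 7.75, 7.83 and 7.76 on the LPS/GalN arrays, against 8.90, 9.39 and 9.33 on the LPS arrays. Every LPS/GalN array lay below every LPS array, and the LPS/GalN values were close together. The level averaged 7.78 ± 0.04 in LPS/GalN and 9.21 ± 0.27 in LPS (SD, n = 3 each), a 2.69-fold lower intensity (log2 difference -1.43, SE 0.23, limma adjusted p = 0.0121). Between the 2 arrays low for thymus and intestine markers the difference was -1.58. The mm9 gene lies on chromosome 5 from 45911548 to 45916844.

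Med26 is a subunit of the middle module found in animals, and human MED26 binds TFIID and elongation complexes that contain ELL-family proteins. Its log2 intensity was 5.88, 6.38 and 5.84 on the LPS/GalN arrays, against 7.53, 7.24 and 7.96 on the LPS arrays. The groups did not overlap, with LPS/GalN replicate 2 and LPS replicate 2 nearest to each other. The level averaged 6.04 ± 0.30 in LPS/GalN and 7.57 ± 0.36 in LPS (SD, n = 3 each), a 2.91-fold lower intensity (log2 difference -1.54, SE 0.28, limma adjusted p = 0.0214). Between the 2 arrays low for both marker lists it was -2.07. The mm9 gene lies on chromosome 8 from 75018457 to 75071937 and spans 53481 bases.

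Med21 is an essential subunit of the middle module, where it pairs with Med7. Its log2 intensity was 7.20, 7.01 and 7.48 on the LPS/GalN arrays, against 8.28, 8.46 and 8.53 on the LPS arrays. All LPS/GalN values lay below all LPS values. The level averaged 7.23 ± 0.24 in LPS/GalN and 8.42 ± 0.13 in LPS (SD, n = 3 each), a 2.29-fold lower intensity (log2 difference -1.19, SE 0.23, limma adjusted p = 0.0280). Between the 2 arrays low for both marker lists it was -1.32. The mm9 gene lies on chromosome 6 from 146591121 to 146599122.

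The remaining 23 Mediator genes did not pass the threshold. The class as a whole had 3 genes lower and 0 higher in limma, where 3.06% and 0.625% of all features were. At an unadjusted p under 0.05, 5 of the 26 were lower and 2 higher, against 9.1% and 8.53% of all features. The median log2 difference of the class was -0.18. Split by module, a split made with these values known, the 7 genes of the middle module had a median of -0.49 and 6 of them had a negative difference. The partner of Med21, Med7, was at 6.66, 5.82 and 6.67 in LPS/GalN, against 7.39, 7.72 and 7.62 in LPS (log2 difference -1.20, limma adjusted p = 0.0694). The 12 genes of the head had a median of -0.07 and ranged from -1.43 to 0.55. Among them Med27 came next to the threshold, at 6.92, 6.99 and 7.26 in LPS/GalN, against 8.42, 7.90 and 8.07 in LPS (log2 difference -1.07, limma adjusted p = 0.0511). A second Med27 row, outside the phrases, differed by 0.16 (limma adjusted p = 0.841 with every row tested on its own), so the rows of Med27 disagreed. Med7 and Med27 were singled out after their values were seen.

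Of the Mediator genes with a positive difference, none passed the threshold. Med14, the scaffold that joins the modules, was at 6.58, 7.79 and 7.49 in LPS/GalN, against 5.71, 6.31 and 6.11 in LPS. The groups did not overlap, yet the LPS/GalN arrays differed among themselves: the log2 difference was 1.24 (SE 0.35, limma adjusted p = 0.111) and passed only without LPS/GalN replicate 1, the one such array without thymus markers (limma adjusted p = 0.0239). Between the 2 arrays low for both marker lists it was 0.47. The other Med14 rows, outside the phrases, were dimmer and differed by 0.06 and 0.71. Neither passed in limma with every row tested on its own (lowest adjusted p = 0.2675). Med23 of the tail, a target of several signalling pathways, differed by -0.25 (SE 0.30). Its groups overlapped, at 5.71, 5.09 and 5.79 in LPS/GalN and 5.70, 5.43 and 6.21 in LPS. The phrases missed Med15, also of the tail, which was named after its values were seen. Its rows differed by -0.70 to -0.025, the brightest by -0.63. None passed in limma with every row tested on its own (lowest adjusted p = 0.124). Med12, which activates the kinase of the kinase module and was chosen after its values were seen, had 2 rows that disagreed. The row that stood for the gene averaged 11.75 in LPS/GalN and 11.04 in LPS and differed by 0.71 (limma adjusted p = 0.142). The other row was far dimmer, averaging 5.11 in LPS/GalN and 6.31 in LPS, and differed by -1.20.

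**Figure D2:**
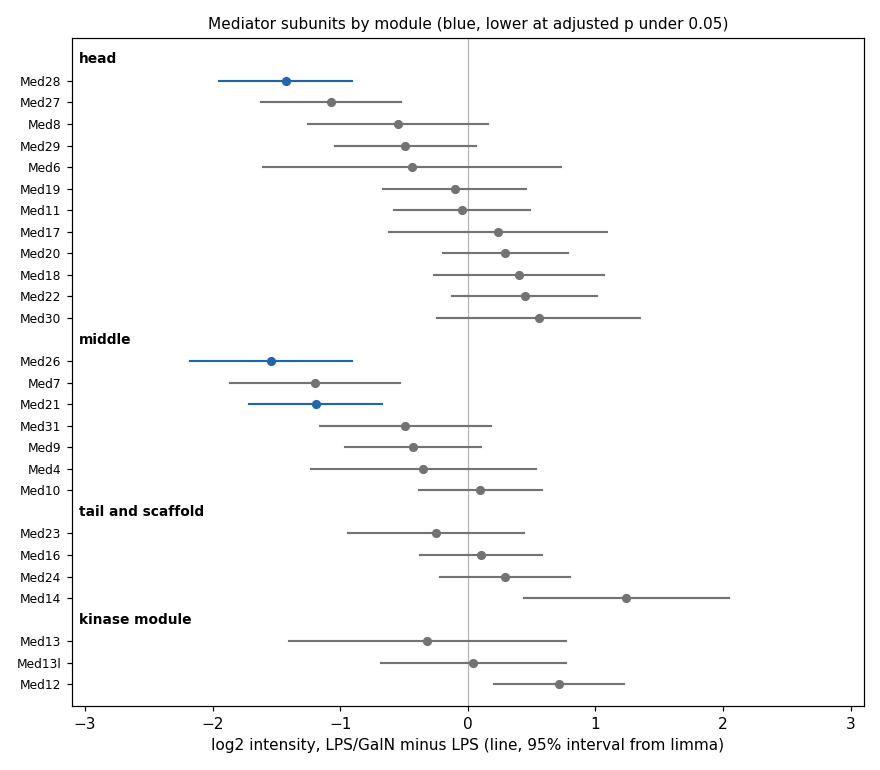
Log2 intensity in LPS/GalN minus LPS for the 26 Mediator genes (points) with their 95% intervals from limma (lines), by module. Blue marks the 3 genes that fell. In the middle module 6 of 7 points lie left of 0, while the tail and scaffold genes among the 26 run from -0.25 to 1.24. The tail gene Med15, which the phrases missed and whose rows all had negative differences, is not shown.

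Among the 19 genes of TBP and the TAFs that the phrases took, Taf7 was the one past the threshold in limma. Taf7 is a TFIID subunit that binds Taf1 and restrains its acetyltransferase activity until the polymerase assembly is complete. Its log2 intensity was 6.27, 6.77 and 5.89 on the LPS/GalN arrays, against 7.92, 7.90 and 8.08 on the LPS arrays. The LPS arrays lay within a narrow range, and even the highest LPS/GalN array was more than 1 log2 unit below them. The level averaged 6.31 ± 0.44 in LPS/GalN and 7.97 ± 0.10 in LPS (SD, n = 3 each), a 3.16-fold lower intensity (log2 difference -1.66, SE 0.27, limma adjusted p = 0.0139). This was the lowest difference among the 94 genes, and between the 2 arrays low for both marker lists it was -1.82. The mm9 gene lies on chromosome 18 from 37801675 to 37803789 and spans 2115 bases, against a median span of 12818 bases over the 94 genes.

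No other of the 11 TFIID genes that the phrases took passed the threshold in limma. A row outside the phrases, matched by its clone name to Taf4b, a cell-type-restricted TFIID subunit, was at 6.17, 5.64 and 5.35 in LPS/GalN, against 7.12, 7.13 and 7.54 in LPS. It did not overlap between the groups and fell (log2 difference -1.54, SE 0.28, limma adjusted p = 0.0216 with every row tested on its own), while another Taf4b row differed by -0.11 (limma adjusted p = 0.875). Taf1, the largest TFIID subunit, was at 6.62, 6.42 and 6.78 in LPS/GalN, against 5.88, 6.46 and 6.33 in LPS. The groups overlapped (log2 difference 0.38, SE 0.25, limma adjusted p = 0.479). The other Taf1 rows differed by -0.05, 0.38 and -0.16. Tbp, which binds the TATA box, was at 8.28, 9.12 and 8.95 in LPS/GalN, against 8.90, 9.29 and 9.31 in LPS, again with overlap (log2 difference -0.38, SE 0.29, limma adjusted p = 0.546). The other Tbp rows differed by -0.15, -0.49 and -0.71. The row at -0.71 did not overlap between the groups (limma adjusted p = 0.162 with every row tested on its own). Taf5, a core TFIID subunit named after its values were seen, was at 5.31, 6.45 and 5.77 in LPS/GalN, against 7.05, 7.74 and 7.12 in LPS. Its groups did not overlap, and its log2 difference of -1.46 (SE 0.34) had a limma adjusted p of 0.0627. Taf3, a TFIID subunit that the phrases missed, was named after its values were seen. Its row was at 5.96, 6.92 and 6.51 in LPS/GalN, against 6.98, 7.22 and 7.40 in LPS, without overlap. It differed by -0.74 (SE 0.29, limma adjusted p = 0.243 with every row tested on its own). Without Taf3 and Taf4b, the 11 TFIID genes that the phrases took had differences on both sides of 0, 6 positive and 5 negative. Their median was 0.26. Their 95% intervals leave room for changes of the size of 1 log2 unit in several cases, for example -1.04 to 0.27 for Tbp, so a p above the threshold does not show that they were equal.

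The RNA polymerase I factor SL1 had 3 of its TAFs on the arrays, and none passed the threshold in limma. At an unadjusted p under 0.05, 1 was higher and 1 lower, where 8.53% and 9.1% of all features were. Taf1c, chosen after its values were seen, was at 6.72, 6.46 and 6.90 in LPS/GalN, against 5.66, 5.99 and 5.57 in LPS (log2 difference 0.96, limma adjusted p = 0.0746), and its second row differed by 0.93. The row that stood for Taf1b differed by -0.92 while another of its rows differed by 0.43, so its rows disagreed. The median difference of the whole class of 19 was 0.06.

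None of the 13 genes of TFIIA, TFIIB, TFIIE, TFIIF and TFIIH passed the threshold in limma. At an unadjusted p under 0.05, 1 was higher and 1 lower, where 8.53% and 9.1% of all features were. Gtf2b, the single subunit of TFIIB, was at 9.44, 10.10 and 9.73 in LPS/GalN, against 10.13, 10.79 and 10.55 in LPS. The highest LPS/GalN array lay just below the lowest LPS array, and the log2 difference was -0.73 (SE 0.28, limma adjusted p = 0.221). Gtf2h2, a core TFIIH subunit, had the widest difference of the class, 0.83 (SE 0.33, limma adjusted p = 0.243), with 10.38, 10.50 and 9.52 in LPS/GalN and 9.54, 8.90 and 9.48 in LPS, which overlap. The other Gtf2h2 rows differed by 0.31, 0.80, -0.10 and -0.29, so its rows disagreed. In the rows that stood for them, the 5 TFIIH genes that the phrases took had positive differences, from 0.08 to 0.83. Of 5 further TFIIH genes in the factor list described below, 3 had negative ones. The lowest was Cdk7 (named after its values were seen) at -0.77. None of the 10 passed the threshold in limma. At an unadjusted p under 0.05, 1 was higher and 1 lower, beside the same shares of all features. The large TFIIF subunit Gtf2f1 differed by -0.45 (SE 0.21), with no overlap. Gtf2a1 of TFIIA differed by 0.41 (SE 0.26), the TFIIE subunit Gtf2e1 by -0.17 (SE 0.38) and the TFIIH subunit Gtf2h1 by 0.08 (SE 0.26). All 3 had overlapping groups, and the other Gtf2a1 row differed by -0.05.

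Of the 20 polymerase subunits that the phrases took, 1 rose and none fell in limma, where 0.625% and 3.06% of all features did. At an unadjusted p under 0.05, 4 were higher and 0 lower, where 8.53% and 9.1% of all features were. The one that rose was Polr2l, the small zinc-binding subunit common to the nuclear RNA polymerases. Its row was at 8.67, 8.04 and 9.11 in LPS/GalN, against 6.69, 7.25 and 6.87 in LPS, with a clear gap between the groups. The level averaged 8.60 ± 0.54 in LPS/GalN and 6.94 ± 0.28 in LPS (SD, n = 3 each), a 3.17-fold higher intensity (log2 difference 1.67, SE 0.32, limma adjusted p = 0.0281), and between the 2 arrays low for both marker lists the difference was 1.79. This row stands for a predicted transcript on mm9 chromosome 7 from 148657757 to 148666947. A second row at the same place, described by a clone name that the phrases do not take, was at 12.56, 12.31 and 12.39 in LPS/GalN, against 12.23, 12.29 and 12.19 in LPS. That row differed by 0.18 (SE 0.21, limma adjusted p = 0.711 with every row tested on its own). The 2 rows of Polr2l thus disagreed on whether its transcript changed.

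**Figure D3:**
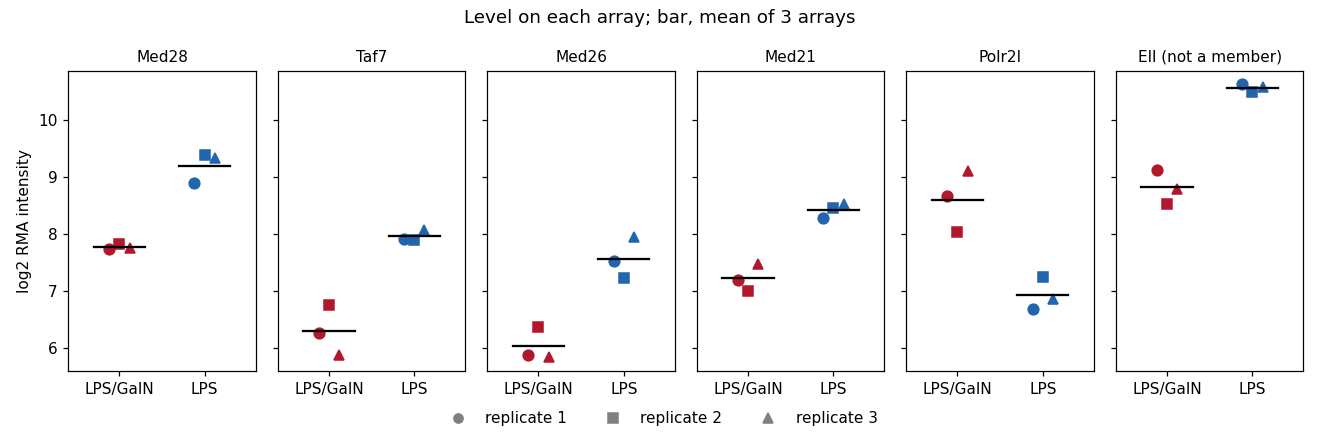
Log2 RMA intensity on each array (points, shape for the replicate number) for the 5 genes that passed the threshold and for Ell, an elongation factor outside the 94 genes, in LPS/GalN (left in each panel) and LPS (right). Bars are means of 3 arrays. In all 6 panels the groups are separate: LPS/GalN is lower for Med28, Taf7, Med26, Med21 and Ell and higher for Polr2l.

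Subunits of RNA polymerase II other than the shared ones had a median difference of 0.38, and none of the 6 passed the threshold in limma. At an unadjusted p under 0.05, 2 were higher and 0 lower, where 8.53% and 9.1% of all features were. Polr2g, which with another subunit forms the stalk, was at 10.29, 10.35 and 10.52 in LPS/GalN, against 9.52, 9.82 and 10.13 in LPS, without overlap (log2 difference 0.56, SE 0.24, limma adjusted p = 0.273). The phrases missed the catalytic subunit Polr2a, whose row carries an older name. That row was at 12.06, 12.66 and 11.83 in LPS/GalN, against 11.89, 12.31 and 12.01 in LPS, with overlap and a log2 difference of 0.11 (SE 0.28). The largest subunit of RNA polymerase I, Polr1a, was likewise under clone names. Its 5 rows had differences from -0.68 to -0.25, and none passed the threshold in limma with every row tested (lowest adjusted p = 0.160). Polr1e, the only subunit of RNA polymerase I that the phrases took, was at 7.27, 7.58 and 7.27 in LPS/GalN, against 7.19, 7.70 and 7.23 in LPS, with the same group means of 7.37.

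The RNA polymerase III subunits that the phrases took had a median difference of 0.11. In limma 0 of 8 passed the threshold. At an unadjusted p under 0.05, where 9.1% of all features were lower and 8.53% higher, 0 were lower and 1 was higher. That gene, Polr3gl, a subunit of the initiation subcomplex, was at 9.53, 9.47 and 9.22 in LPS/GalN, against 8.89, 8.63 and 9.00 in LPS, without overlap (log2 difference 0.57, SE 0.22, limma adjusted p = 0.240). The phrases missed the subunit Polr3d, which was named after its values were seen. Its row was at 8.20, 8.60 and 8.20 in LPS/GalN, against 9.10, 9.35 and 9.40 in LPS, without overlap. It differed by -0.95 (SE 0.23, limma adjusted p = 0.0680 with every row tested on its own). Among the 5 genes of TFIIIA and TFIIIC, 0 passed in limma. Beside the same shares of all features, 0 were lower and 1 was higher at an unadjusted p under 0.05. This was Gtf3a (TFIIIA, which recruits the machinery to 5S rRNA genes), at 10.05, 9.79 and 9.97 in LPS/GalN, against 9.18, 9.38 and 9.35 in LPS. The groups did not overlap and differed by 0.63 (SE 0.21, limma adjusted p = 0.168). Gtf3c1, the DNA-binding TFIIIC subunit, differed by 0.41 (SE 0.22) and also without overlap in the row that stood for it. The other Gtf3c1 rows differed by 0.004, -0.38 and 0.06, so its rows disagreed. The rows at -0.38 and 0.06 were dim, averaging 5.4 and 5.6 in LPS/GalN, against 10.7 for the row that stood for the gene. The mitochondrial polymerase Polrmt differed by 0.38 (SE 0.30), with overlapping groups. Polr3a and Med1 were not analysed here.

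**Figure D4:**
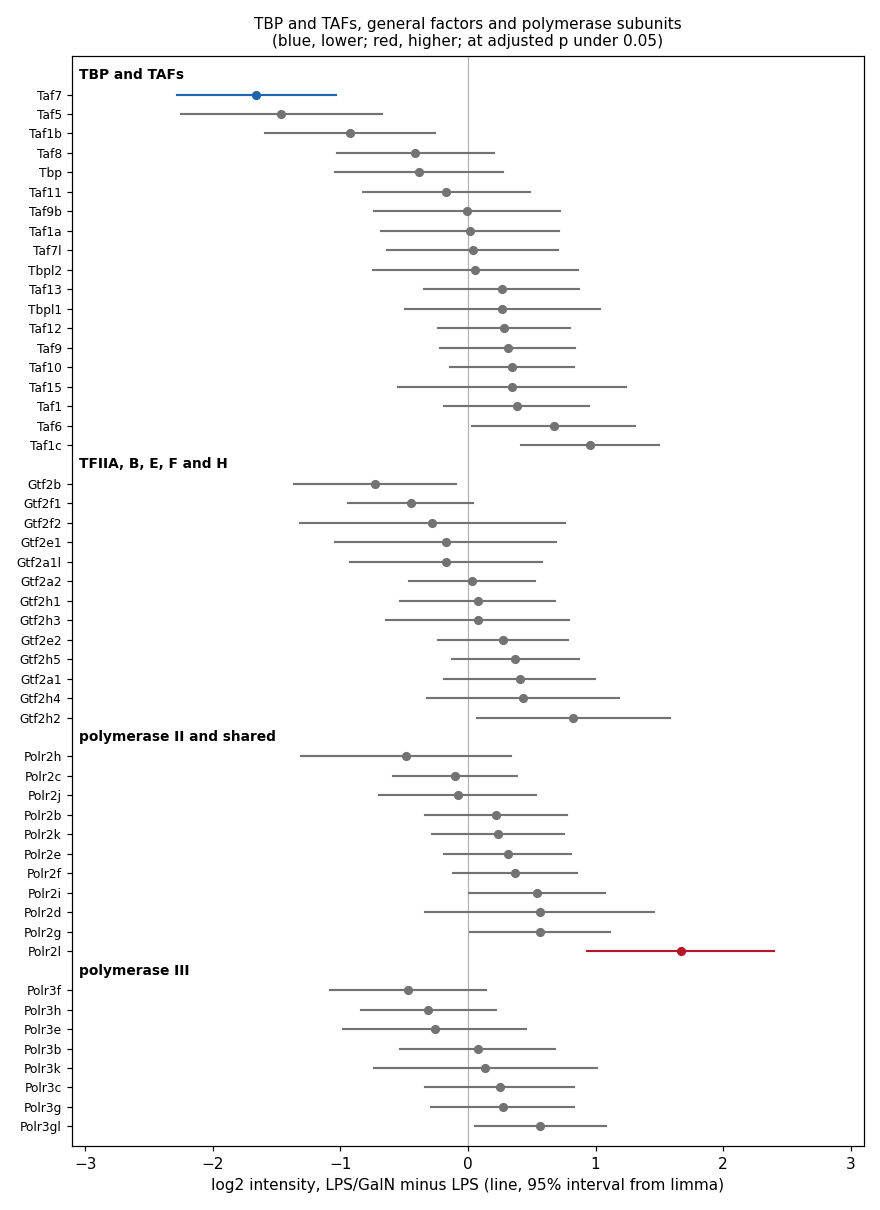
Log2 intensity in LPS/GalN minus LPS (points) with 95% intervals from limma (lines) for TBP and the TAFs, the general factors TFIIA to TFIIH, and the subunits of RNA polymerases II and III. Taf7 (blue, -1.66) and Polr2l (red, 1.67) are the genes past the threshold, and most intervals of the others include 0.

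In the TFII-I family, Btf3l4 and the transcripts known by description, 0 of 10 passed in limma. At an unadjusted p under 0.05, 2 were higher and 1 lower, where 8.53% and 9.1% of all features were. Gtf2i encodes TFII-I, a factor that binds initiator elements and E-boxes. Its row was at 6.95, 7.35 and 6.58 in LPS/GalN, against 8.02, 8.06 and 8.03 in LPS, without overlap (log2 difference -1.07, SE 0.25, limma adjusted p = 0.0641). A second Gtf2i row outside the phrases differed by 0.52 (SE 0.21, limma adjusted p = 0.250 with every row tested), so the rows of Gtf2i had opposite signs. Of the 34 genes with several rows, 16 had rows of one sign only. The 5 genes past the threshold each had a single row by the phrases.

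Factors that act beside this machinery, but whose descriptions do not hold the phrases, were taken from a list of 57 genes, of which 51 had a row. The list covers the TFIIH kinase, the Mediator kinase, polymerase I and III factors, elongation and pausing factors and phosphatases of the polymerase tail. In limma 1 of the 51 fell (1.96%, against 3.06% of all features) and 0 rose (against 0.625%). At an unadjusted p under 0.05, 10 were lower and 1 higher, where 9.1% and 8.53% of all features were, and the median log2 difference was -0.04. The gene that fell was Ell, an elongation factor of the polymerase and a member of the family whose complexes human MED26 binds. Its log2 intensity was 9.13, 8.53 and 8.80 on the LPS/GalN arrays, against 10.63, 10.49 and 10.58 on the LPS arrays, with no overlap. The level averaged 8.82 ± 0.30 in LPS/GalN and 10.57 ± 0.07 in LPS (SD, n = 3 each), a 3.35-fold lower intensity (log2 difference -1.74, SE 0.23, limma adjusted p = 0.0059). Between the 2 arrays low for thymus and intestine markers it was -1.44. Brf2, a TFIIIB subunit used at the U6 class of polymerase III promoters, had the next smallest p. It was at 6.48, 6.26 and 6.55 in LPS/GalN, against 7.32, 7.57 and 8.36 in LPS (log2 difference -1.32, SE 0.30, limma adjusted p = 0.0587), without overlap.

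With 1 array left out in turn, the 5 genes kept their direction, while their adjusted p crossed the threshold in part of the fits. Med28 passed in 5 of the 6 fits, and did not without LPS replicate 2 (limma adjusted p = 0.0619). Taf7 passed in 4, and did not without LPS replicate 1 or LPS replicate 2 (highest limma adjusted p = 0.0601). Med26 passed in 3, and did not without LPS replicate 1, LPS replicate 3 or LPS/GalN replicate 3 (highest limma adjusted p = 0.0809). Med21 passed in 1, without LPS/GalN replicate 3 (highest limma adjusted p in the others 0.107). Polr2l passed in 1, without LPS/GalN replicate 2 (highest limma adjusted p in the others 0.118). Ell passed in all 6.

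Leaving out LPS replicates 1 and 2, the arrays with intestine markers, gave log2 differences of -1.55 for Med28, -1.77 for Taf7, -1.92 for Med26, -1.29 for Med21 and 1.73 for Polr2l. Leaving out LPS/GalN replicates 2 and 3, the arrays with thymus markers, gave -1.46 for Med28, -1.70 for Taf7, -1.69 for Med26, -1.22 for Med21 and 1.73 for Polr2l. Each of these differences of the 5 genes was at least as large as with all 6 arrays. For Ell the difference was -1.75 without the intestinal arrays and -1.43 without the thymus arrays, and it passed in neither (limma adjusted p = 0.221 and 0.132). In both fits 1 array stood for its group and was assumed to vary like the others, and 0 of the 94 genes passed in limma. Over all features, 0 passed without the intestinal arrays, and 21 were higher and 238 lower without the thymus arrays.

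**Figure D5:**
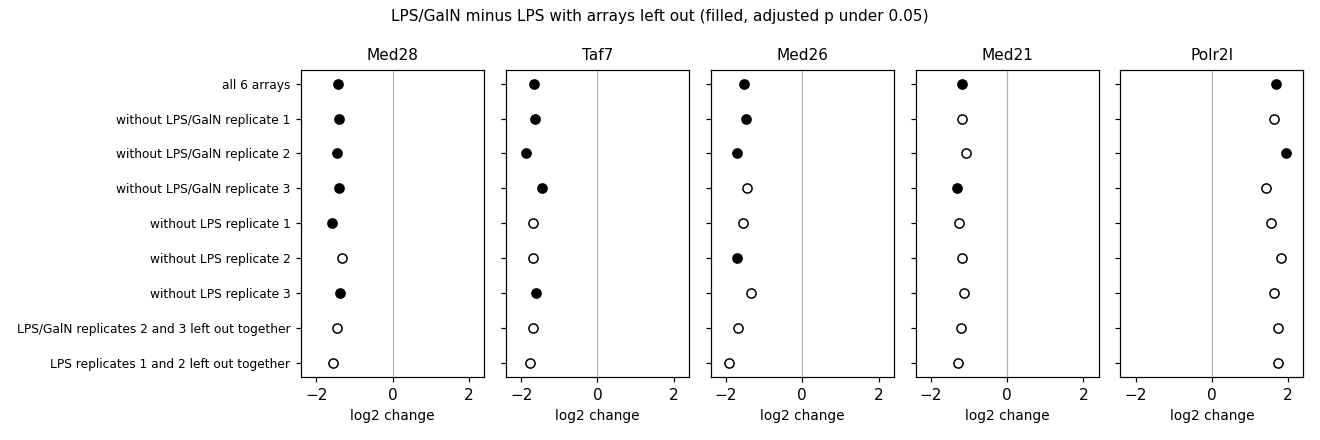
Log2 intensity in LPS/GalN minus LPS (x axis) for the 5 genes past the threshold, with all 6 arrays and with the arrays named on the y axis left out. Filled points have an adjusted p under 0.05 in limma. The differences stay between -1.92 and -1.08 for the 4 genes that fell and between 1.42 and 1.95 for Polr2l, while filled points become open in part of the fits.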

How the data were processed

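Liver RNA of 6 mice was measured on single-colour NimbleGen arrays. The authors deposited RMA intensities on a linear scale, 1 value per target and array, per the file headers; RMA is named in the submitters' processing notes. RMA subtracts background, makes arrays comparable and combines the probes for each target, so a shift common to all transcripts would be removed. Its version is not given in the sources used here. The series' own value table, also RMA intensity, was used for one alternative. The number of arrays limits the precision. Of 44170 rows, 44155 were summarised from 3 probes. The row of random probes, 31.3 to 34.7 by array, served as background, and 17.5 to 22.0% of rows lay at or below it. Gene positions are mm9, per the file headers, and probe positions were not used.

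Intensities were converted to log2 and compared by limma 3.58.1 in R 4.3.3 (lmFit and eBayes, group as the only term, two-sided), with Benjamini-Hochberg adjustment over all 36140 features. Differences are LPS/GalN minus LPS. The steps were tested on simulated data.

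The genes, lists and tests were chosen with earlier results of these data known. Genes were named by rule: every gene past the threshold, Taf7, in each class the smallest p and the largest difference, a fixed set of subunits, and from the factor list each gene past the threshold and the 2 with the smallest p. The alternatives left out arrays or changed the scale, the filter, the normalization, the fit or the rows used.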

Additional observations from a re-analysis of the deposited data

How the results depend on the processing

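Of 19 alternatives, some moved the counts. The count of genes that fell, 4 with all arrays, ranged from 1 to 4 with 1 array left out and the count that rose, 1 with all arrays, from 0 to 1. In these fits 1.8% to 3.04% of all features fell and 0.102% to 1.75% rose. Leaving out LPS replicates 1 and 2, or LPS/GalN replicates 2 and 3, gave 0 and 0. A block for the replicate number gave 2 lower (Med28 and Taf5) and 0 higher, where 2.28% and 0.313% of all features were. The deviations of same-numbered arrays correlated at 0.003, -0.003 and 0.027, and those of differently numbered arrays at -0.07 to 0.063. These correlations cannot decide whether the numbers pair the mice. The deviations are from means of 3 arrays, some of which carried thymus or intestine markers. Trend and robust fitting gave 2 higher and 6 lower, where 2.5% and 4.51% of all features were. Values floored at the random probes gave 2 higher and 6 lower, against 0.88% and 3.33% of all features. The deposited value table of the series, which holds 73 of the 94 genes, gave 3 higher and 7 lower, against 4.29% and 9.11%. With log2(intensity + 16) 1 was higher and 8 lower, against 1.08% and 3.71%, with the 4 genes of the report among the lower. Joining rows under older names, an alternative chosen after seeing the data, gave 0 higher, since Polr2l then took its other row, and 5 lower, Taf4b being added. It covered 103 genes, and 0.623% of all features were higher and 3.06% lower. Factor genes outside the 94 numbered 1 to 2 lower and 0 higher with 1 array left out, beside the shares of all features given above. Of the 51, 5 were lower and 1 higher with trend and robust fitting, where 4.51% and 2.5% of all features were. The deposited table held 45 of them, and 4 were lower, against 9.11%. With log2(intensity + 16) 3 of the 51 were lower, against 3.71%.

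The median difference of the 94 genes ranged from 0.024 to 0.23 with 1 array left out and was -0.068 without LPS replicates 1 and 2. With 1 array left out, class medians ranged from -0.28 to -0.037 for Mediator, 0.22 to 0.52 for RNA polymerase II, -0.064 to 0.24 for RNA polymerase III, 0.22 to 0.42 for shared subunits, 0.025 to 0.28 for TBP and TAFs and 0.038 to 0.29 for the TFII-I family. Without LPS replicates 1 and 2 they were -0.039 for RNA polymerase II, -0.077 for RNA polymerase III, 0.19 for shared subunits, -0.29 for TBP and TAFs and 0.015 for the TFII-I family. Without LPS/GalN replicates 2 and 3 they were -0.34 for Mediator and 0.10 for RNA polymerase II. In the deposited table they were -0.10 for Mediator, 0.22 for RNA polymerase II, -0.062 for RNA polymerase III, 0.26 for TBP and TAFs and 0.004 for the TFII-I family. Mediator stood at -0.25 with the mean over all rows of a gene and at -0.074 with older names.

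Signs turned for genes near 0: Gtf2e1 (-0.41 to 0.23 with 1 array left out, positive when LPS replicate 3 or, at 0.024, LPS/GalN replicate 2 was missing), Gtf2h1 (-0.12 to 0.27, negative when LPS/GalN replicate 3 or, at -0.02, LPS replicate 1 was missing, and -0.034 without LPS replicates 1 and 2) and Polr1e (-0.10 to 0.16, 0.14 without LPS replicates 1 and 2, 0.035 with quantile normalization). With older names joined, Gtf2i stood at 0.52 and Med23 at 0.17, from other rows. The cause of the other changes was not tested. Dim genes near the random probes limit what these arrays can show.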
